A study of Rattus norvegicus with 2 samples.

Results

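The genes described here form the regulatory circuit of NRF2, the transcription factor that cells use to sense oxidants and electrophiles. They are the 10 genes Nfe2l1, Nfe2l2, Keap1, Bach1, Maff, Mafg, Mafk, Osgin1, Hmox1 and Nqo1, taken by the gene name that the array files give to their non-control probes, out of 27235 named genes on the array and 13062 named genes measured on both arrays. IEC6, an established epithelial line from rat small intestine, was cultured in dishes and exposed in low-serum medium for 60 min to sodium trisulfide (Na2S3), an inorganic polysulfide, or to water as the control. The treatment label and the design text give the Na2S3 dose as 100 µM, whereas the treatment protocol states a millimolar unit, and that conflict is not settled by the files. Each group is represented by total RNA on 1 single-colour (Cy3) array. A single array per group allows no test, and "higher" and "lower" describe this pair of arrays.

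In unstressed cells KEAP1 holds NRF2, the product of Nfe2l2, to a CUL3 ubiquitin ligase, and NRF2 is degraded soon after it is made. Electrophiles and reactive sulfur species modify cysteines of KEAP1, so that NRF2 escapes, enters the nucleus and binds antioxidant response elements together with a small MAF protein (MafF, MafG or MafK). BACH1 competes for the same elements and small MAF partners as a repressor that heme removes from DNA. Hmox1, Nqo1 and Osgin1 are target genes of this system, and NRF1, the product of Nfe2l1, is a related factor that responds to proteasome stress.

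All 10 genes had a higher scaled signal in the Na2S3 array, and 5 of them were at least 2-fold higher: Osgin1, Maff, Mafk, Mafg and Hmox1. None was at least 2-fold lower (0 of 10). Among all 13062 measured genes, 0.942% passed 2-fold upward, 0.620% passed it downward, and 43.4% had a log2 ratio above 0. The median log2 ratio of the 10 genes was 0.82, against -0.04 for all measured genes. The 10 genes were chosen with earlier results of these data known, so these comparisons describe them and give no independent support. All 3 small MAF genes passed 2-fold, whereas the NRF factor genes and Keap1 did not, and of the 3 target genes Nqo1 stayed near its control signal.

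The circuit was read by 12 probes in 13 spots, since Nfe2l2 has 1 probe spotted in 2 places, Mafg and Bach1 have 2 probes each, and the other genes have 1 probe in 1 spot. No accession led to a further probe of these genes (0), and no member spot carried an outlier flag (0). The 60-base probes whose letters encode known stretches of the protein are shown, since they fix which part of each transcript the values come from, and those of Bach1 allow different parts of 1 transcript to be compared. Capitals mark the stop codon where a probe reaches the end of the coding sequence. Coordinates are those of the files, in rn4.
Hmox1 probe, chr19:13969336-13969395, plus strand: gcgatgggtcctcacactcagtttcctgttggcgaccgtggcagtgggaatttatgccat
Osgin1 probe, chr19:49689658-49689717, plus strand: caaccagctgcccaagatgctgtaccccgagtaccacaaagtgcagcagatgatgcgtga
Nqo1 probe, chr19:37251727-37251786, minus strand: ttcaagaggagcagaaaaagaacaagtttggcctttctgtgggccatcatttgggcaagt
Nfe2l2 probe, chr3:58367137-58367196, minus strand: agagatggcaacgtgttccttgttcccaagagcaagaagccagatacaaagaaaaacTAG
Bach1 brighter probe, chr11:27491179-27491238, plus strand: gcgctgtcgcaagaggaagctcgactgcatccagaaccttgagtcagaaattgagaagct
Bach1 dimmer probe, chr11:27499249-27499308, plus strand: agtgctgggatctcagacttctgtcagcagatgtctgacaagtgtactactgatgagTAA

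The other probes lie in rn4 at chr7:117340066-117340125 (Maff, plus strand), chr12:15313181-15313240 (Mafk, minus strand), chr10:110016515-110016574 and chr10:110020452-110020511 (Mafg, minus strand), chr8:20259319-20259378 (Keap1, minus strand) and chr10:85575077-85575136 (Nfe2l1, minus strand). Their place in an exon or UTR was not analysed here.

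Signals below are the scanner software's processed intensities, which are background-subtracted. A ratio divides the Na2S3 signal by the control signal after each array is scaled to its own 75th percentile over non-control probes (413 intensity units for control and 478 for Na2S3), which takes 0.21 off every unscaled log2 ratio. The error beside a ratio is the spread (1 SD) that repeat spots of other probes show at similar signal, taken as the log2 mean of both arrays. It is divided by the square root of the number of spots averaged. It covers the spot alone and not the culture, the RNA or the labelling. A change in the share of responding cells and a change of RNA per cell cannot be told apart in such bulk RNA.

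The small MAF genes encode the short bZIP proteins that have no activation domain of their own and pair with NRF2, NRF1 or BACH1. Maff had a signal of 501 in the control and 2233 with Na2S3. This was 3.86-fold after scaling, a log2 ratio of 1.95 with a spot error of 0.08. Maff stood at rank 28 of the 13062 measured genes, with 27 genes above it.

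Mafg was read by probes 3937 genomic bases apart. The brighter went from 3940 to 9896 and the other from 1456 to 3503. Their log2 ratios were 1.12 and 1.06, each with an error of 0.09 to 0.10, so the difference between the probes (0.06) was smaller than the error of either. Mafg was thus the one small MAF gene read by separate probes, and both passed 2-fold.

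Mafk had a signal of 108 in the control and 277 with Na2S3, 2.23-fold after scaling. Its log2 ratio of 1.16 had a larger error (0.16), as its spot is dim. Normexp is a background correction, run here with an offset of 50 units added to each spot, and the setting damps ratios of dim spots. With normexp, Mafk stood at 0.81 and no longer passed 2-fold, while Maff (1.83) and Mafg (1.15) still passed it.

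**Figure D1:**
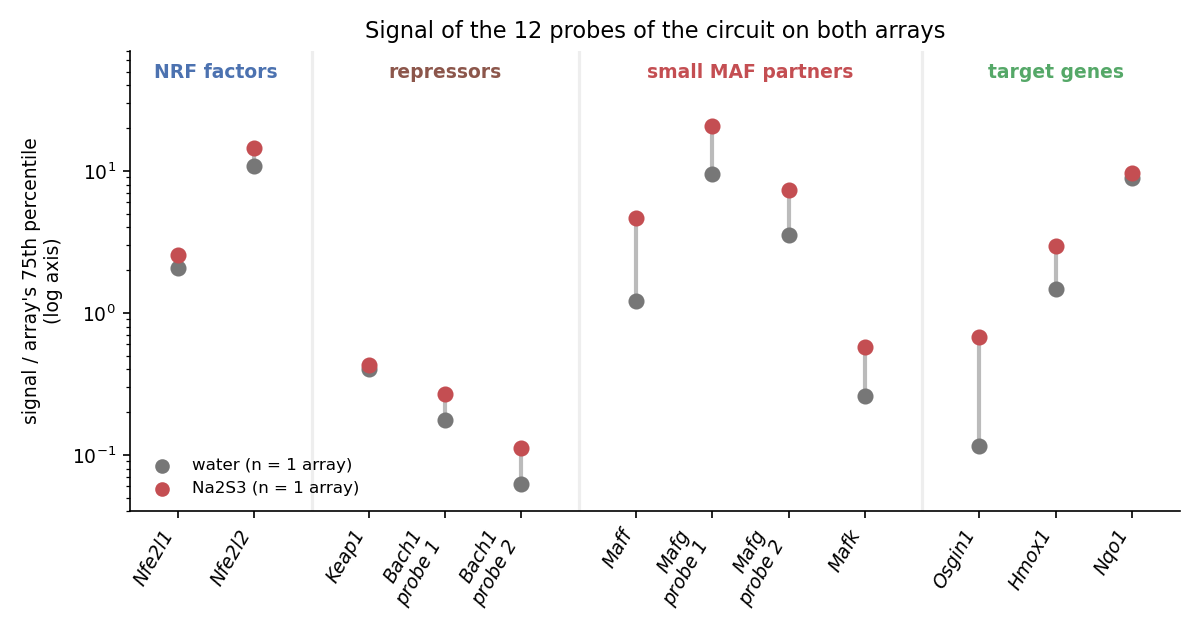
Processed signal of each of the 12 probes divided by the 75th percentile of its array (vertical log axis), with grey points for water and red points for Na2S3, 1 array each. Every red point lies above its grey point, with the widest gaps for Osgin1 (0.12 to 0.68) and Maff (1.21 to 4.68); heights of different probes are not comparable with one another.

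Of the genes whose products hold the pathway back, Bach1 was somewhat higher and Keap1 close to its control signal. The brighter Bach1 probe, with a signal of 72.8 in the control, gave 129 with Na2S3. The dimmer probe, 8070 genomic bases away at the end of the coding sequence, went from 25.9 to 53.6. Their log2 ratios were 0.61 (error 0.19) and 0.84 (error 0.34), in the same direction and 0.23 apart. Neither reached 2-fold after scaling, although the dimmer probe gave 2.07-fold before it, and with normexp the brighter probe stood at 0.28.

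Keap1, the gene of the NRF2 sensor and adaptor, had a signal of 167 in the control and 207 with Na2S3. Its log2 ratio of 0.10 was smaller than its spot error of 0.16. Of all measured genes, 27.8% had a higher ratio than Keap1 and 2.70% a higher ratio than Bach1.

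Nfe2l2, which encodes NRF2 itself, had spots of 4679 and 4289 in the control and of 6554 and 7356 with Na2S3. Both Na2S3 spots lay above both control spots. The spot positions gave log2 ratios of 0.28 and 0.57, and their average of 0.42 had an error of 0.06. That error comes from other probes, and the spots of Nfe2l2 itself lay further apart than it. Nfe2l1, which encodes NRF1, went from 858 to 1228, a log2 ratio of 0.31 with an error of 0.08. Both genes were thus higher by more than their spot error and well below 2-fold, with 5.42% of measured genes above Nfe2l2 and 9.23% above Nfe2l1.

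The target genes ran from the highest ratio of the circuit to one near 0. Osgin1, whose product is an oxidative stress induced growth inhibitor, had a signal of 48.1 in the control and 326 with Na2S3. The raw spot brightness behind these values was 135 over a local background of 71 in the control, and 428 over 68 with Na2S3. The ratio was 5.87-fold, a log2 ratio of 2.55 with a spot error of 0.19, and only 13 measured genes stood higher. Its control spot is dimmer than the mean signal that set this error. Repeat spots at 32 to 64 units, where that control spot lies, spread by 0.34, so 0.19 may be too small. With normexp the log2 ratio was 1.61, which puts Osgin1 below Maff.

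Hmox1 encodes heme oxygenase 1, which opens heme to biliverdin, iron and carbon monoxide and is a classic target of both BACH1 repression and NRF2 activation. Its signal was 605 in the control and 1415 with Na2S3. That is 2.34-fold before scaling and 2.03-fold after it, a log2 ratio of 1.02 with an error of 0.08. The value sits on the 2-fold line within its own error, and with normexp it was 0.95.

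Nqo1 encodes a quinone reductase that is often used as a readout of NRF2 activity. It had a signal of 3673 in the control and 4586 with Na2S3. Its log2 ratio was 0.11 with an error of 0.09, and 25.8% of measured genes had a higher ratio. Of the target genes, Osgin1 and Hmox1 thus differed from Nqo1 by far more than the spot error.

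Set in order of ratio, the genes fell into steps, some of which the spot error does not resolve. Osgin1 lay above Maff by 0.60 and Maff above Mafk by 0.79, both more than the combined spot error of the genes compared. Mafk, Mafg and Hmox1 followed at 1.16, 1.12 and 1.02, and neighbours among these 3 differed by less than their combined error. Hmox1 lay above the brighter Bach1 probe by 0.41. The dimmer Bach1 probe (0.84, error 0.34) came within its own error of Hmox1, so that step rests on the brighter probe. Bach1 by its brighter probe and Nfe2l2 (0.19 apart, combined error 0.20) were not resolved. Nfe2l2 lay above Nfe2l1 by 0.11, but its spots gave 0.28 and 0.57, on either side of the 0.31 of Nfe2l1, so their order was not resolved. Nfe2l1 lay above Nqo1 by 0.20. Nqo1 and Keap1, the lowest, differed by 0.02, less than their combined error of 0.18. Part of this order changed under the normexp setting, whose background correction and added offset were not run apart. With normexp, Osgin1 (1.61) stood below Maff (1.83) and Mafk (0.81) below Hmox1 (0.95). Bach1 (0.28) then stood below Nfe2l2 (0.44) and Nfe2l1 (0.32).

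**Figure D2:**
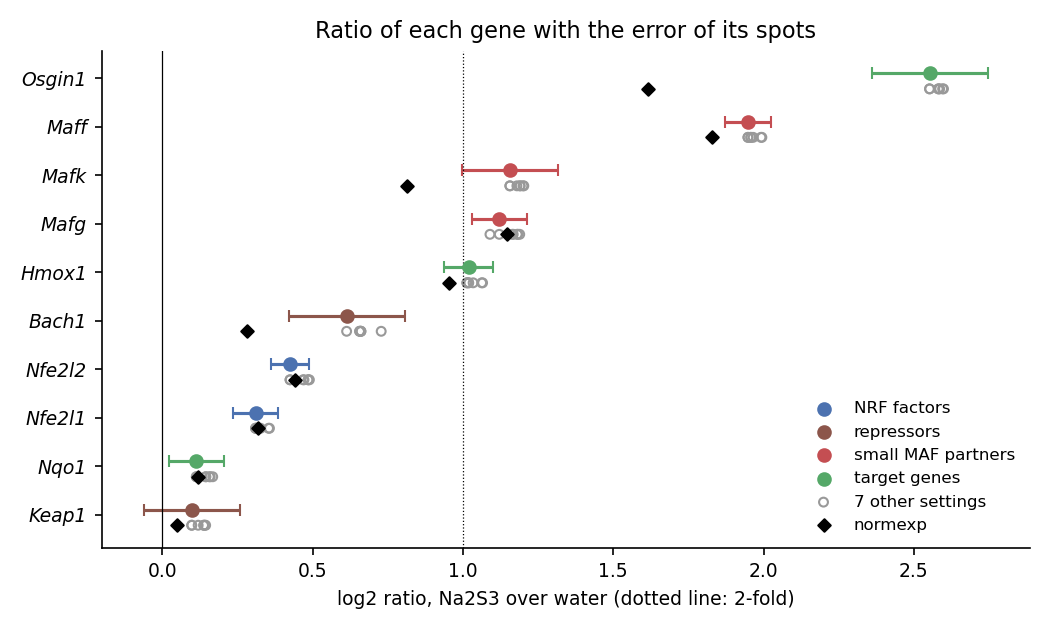
Log2 ratio of Na2S3 over water for each gene (horizontal axis), with filled points coloured by role and bars of 1 spot error; open circles give 7 other processing settings and black diamonds normexp background correction. Osgin1 (2.55), Maff (1.95), Mafk (1.16), Mafg (1.12) and Hmox1 (1.02) lie past the dotted 2-fold line, and the diamonds of Mafk (0.81) and Hmox1 (0.95) fall short of it.

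With normexp, 3 of the 10 genes (Osgin1, Maff and Mafg) were at least 2-fold higher, beside 0.467% of all measured genes under the same correction.

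**Figure D3:**
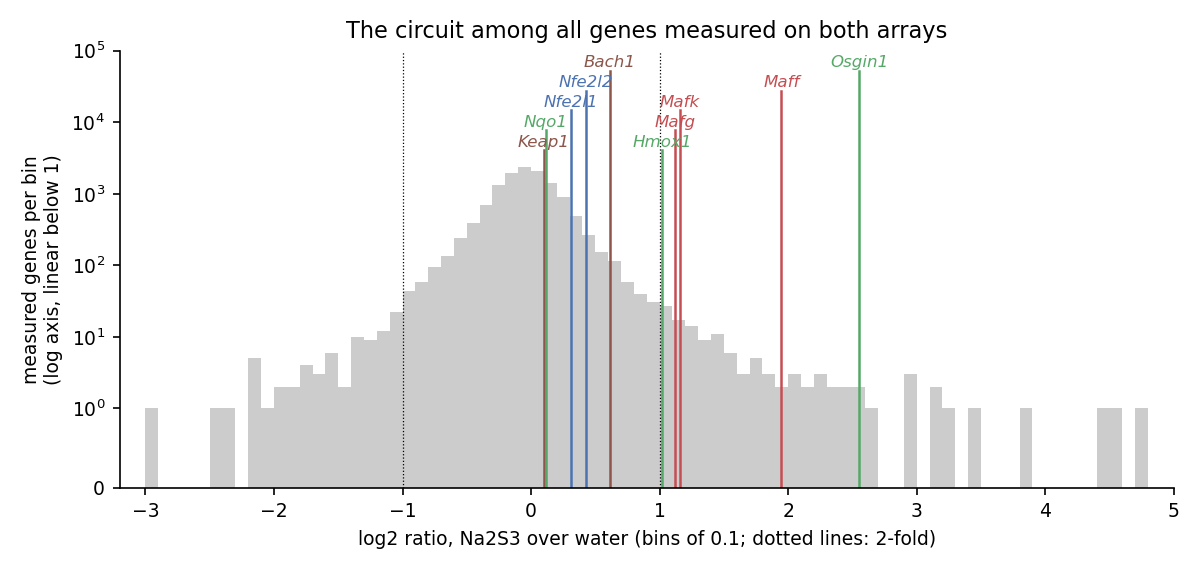
Histogram of the log2 ratios of all 13062 measured genes in bins of 0.1 (vertical axis: genes per bin, logarithmic above 1), with a line for each gene of the circuit. All 10 lines lie to the right of 0, where 43.4% of measured genes lie, and 5 lie past the dotted line at 2-fold, as do 123 of all genes.

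The relatives of these factors did not share the high ratios of the small MAF genes. Of 7 CNC and MAF family genes outside the circuit, 4 were measured, 0 passed 2-fold in either direction and 3 had a negative ratio. With 0.942% of all measured genes past 2-fold upward and 0.620% downward, the count of 0 does not set them apart from other genes. The large MAF genes, whose products carry an activation domain, stood at -0.32 for Maf (6752 in the control and 6254 with Na2S3) and -0.26 for Mafa (641 and 617). Bach2, the BACH1 paralogue, had 0.32 and Nfe2l3, the gene of a further NRF factor, had -0.27. Neither array had Nfe2 well above background. Nrl was above it with Na2S3 alone (32.8, against 4.59 in the control), and was at least 1.55-fold higher there against the lowest signal above background.

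Genes whose products act on the stability of NRF2, KEAP1 or NRF1 were mostly near their control signal. Of 20 measured, 1 passed 2-fold upward and 0 downward, and the median log2 ratio was 0.02. The exception was Sesn2, a stress-induced sestrin gene whose product promotes the removal of KEAP1 by autophagy. Its signal was 65.2 in the control and 699 with Na2S3, a log2 ratio of 3.21 (2.37 with normexp). The ligase scaffold gene Cul3 went from 3096 to 3475 and the autophagy adaptor gene Sqstm1 from 27056 to 32172, ratios of -0.04 (0.16 by the other Cul3 probe) and 0.04 after scaling. By the brightest probe of each gene, the next largest ratios were those of Amer1 (-0.55), whose product binds KEAP1, Gsk3b (0.32), the kinase that marks NRF2 for a further ligase, Fbxw11 (-0.31), a receptor subunit of that ligase, and Pgam5 (0.31), a mitochondrial phosphatase bound by KEAP1. Probes of 1 gene disagreed here: the other probe of Fbxw11 gave -0.91, and the 5 probes of Gsk3b ran from 0.02 to 0.42 with a median of 0.12. Syvn1, the gene of a ligase of the endoplasmic reticulum that acts on NRF2 and NRF1, had 0.21 by its brighter probe and -0.56 by the other.

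Other NRF2 target genes, like Osgin1 and Nqo1, ranged from a few with high ratios to a majority near 0. Of 30 such genes, 27 were measured, and 2 of them (7.41%) passed 2-fold upward and 0 downward. Their median was -0.14 and 18 of the 27 had a negative ratio, although the median moved to -0.0046 with quantile normalization. The 2 were Srxn1, the sulfiredoxin gene, with a signal of 1402 in the control and 7934 with Na2S3 (log2 ratio 2.29), and Slc7a11, the cystine transporter gene, with 43.9 and 216 (2.09, and 1.08 with normexp). By the brightest probe of each gene, Txnrd1, a thioredoxin reductase gene, had 0.72 and Abcc1, an exporter of glutathione conjugates, 0.54. Gsr, the glutathione reductase gene, had 0.40 and Pgd, an enzyme gene of the pentose phosphate pathway, -0.42. Probes of 1 gene disagreed here too. Akr1b8 had 0.30 by its brighter probe and 0.74 by the other, and Txn1 had -0.18 and -0.84. For Gclm, Gpx2 and Trim16 neither array was well above background.

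Genes of heme and iron handling beside Hmox1 stayed within 2-fold (0 of 14 higher, 0 of 14 lower), with a median of -0.06. Of all measured genes only 0.942% passed 2-fold upward and 0.620% downward, so these counts do not set the list apart. Hmox2, the constitutive heme oxygenase gene, had signals of 1590 and 1762, a log2 ratio of -0.06. The iron exporter gene Slc40a1 had -0.58, Alas1, the first enzyme of heme synthesis, 0.44, and the ferritin genes Ftl1 and Fth1, which are NRF2 and BACH1 targets, -0.34 and -0.28. Hmox1 was the one gene of heme breakdown past 2-fold among those measured here.

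**Figure D4:**
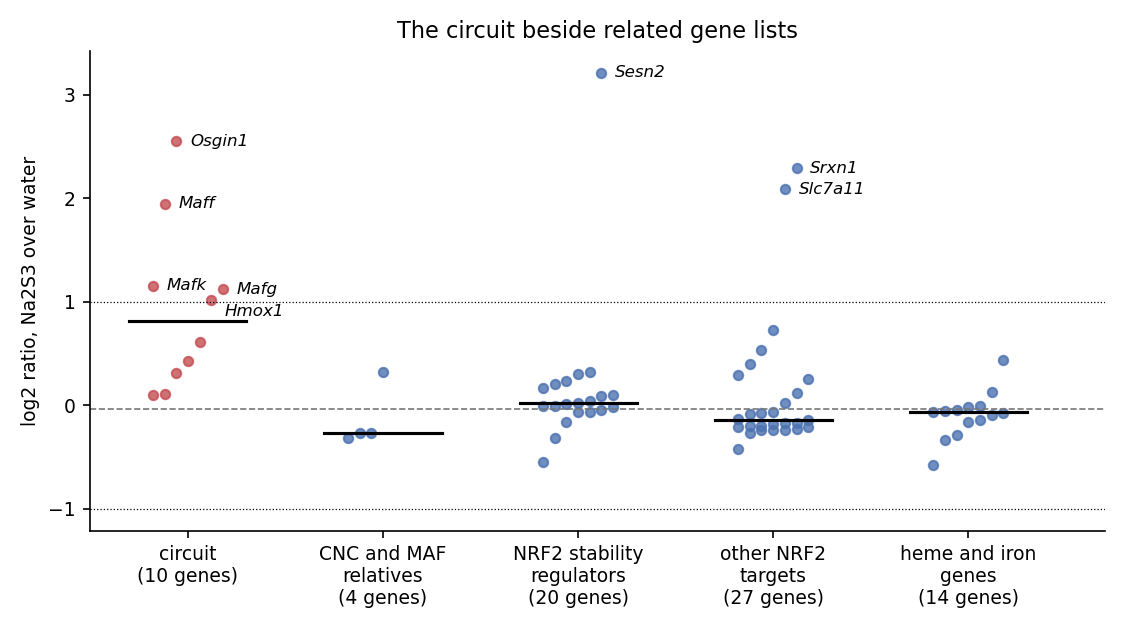
Log2 ratio of Na2S3 over water for each measured gene of the circuit (red) and of 4 related lists (blue), with black bars at the list medians, a dashed line at the median of all genes (-0.04) and dotted lines at 2-fold. The circuit's median of 0.82 lies above those of the relatives (-0.27), stability regulators (0.02), other targets (-0.14) and heme and iron genes (-0.06), and Sesn2, Srxn1 and Slc7a11 are the named points past 2-fold outside the circuit. The circuit and the lists were chosen with earlier results of these data known.

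Promoter sequence was examined as a feature that the choice of genes did not use. RefSeq windows of the GRCr8 assembly, 250 bases before to 50 after a start site, were held for 9 of the 10 genes, all but Hmox1, in 11 windows, as Nfe2l1 has 3. The core of the antioxidant response element (TGACNNNGC, either strand) occurred in 2 of the 11 windows, those of Mafk and Nfe2l2, against 12.1% of all 33469 windows. The AP-1 core (TGANTCA, either strand) occurred in 1, that of Bach1, against 7.33% of all windows. The cyclic AMP response element (TGACGTCA, either strand), which was added to the search after the Maff window was seen, occurred in that of Maff alone, against 1.83% of all windows. No match of 1 motif overlapped a match of another in these windows, and a match describes letters and not a bound site.

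The matches are shown for the genes that hold them, in capitals, as the 250 bases before the start site where the match lies there and as 30 bases around it where the match lies at or past the start. In Maff the match begins 51 bases before the start site and reads the same on both strands. In Mafk it begins 41 bases before it and reads TGACACCGC on the opposite strand. In Nfe2l2 it begins 38 bases past the start, and in Bach1 29 bases past it.
Maff promoter, GRCr8 chr7:112792537-112792786, plus strand: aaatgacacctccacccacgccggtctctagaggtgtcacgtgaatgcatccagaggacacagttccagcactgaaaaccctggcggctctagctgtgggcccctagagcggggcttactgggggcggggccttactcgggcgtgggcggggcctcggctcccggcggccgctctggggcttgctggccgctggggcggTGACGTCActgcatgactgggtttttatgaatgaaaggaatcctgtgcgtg
Mafk promoter, GRCr8 chr12:19959193-19959442, minus strand: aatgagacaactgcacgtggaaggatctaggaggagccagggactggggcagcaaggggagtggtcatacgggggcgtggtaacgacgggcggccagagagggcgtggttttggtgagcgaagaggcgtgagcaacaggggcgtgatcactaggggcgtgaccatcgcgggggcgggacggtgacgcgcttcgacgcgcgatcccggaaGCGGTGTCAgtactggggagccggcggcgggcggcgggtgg
Nfe2l2, GRCr8 chr3:81028950-81028979, minus strand: actgctccgactagccatTGACGCCGCctc
Bach1, GRCr8 chr11:40425739-40425768, plus strand: cgcggagggagTGAGTCAcctgaccgccgc

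For the regulator genes other than Keap1, the windows held more CpG than the median window of a protein-coding gene, which held 11. Mafg held 39 CpG, Mafk 35, Bach1 33, Maff 22, Nfe2l2 16 and the windows of Nfe2l1 12 to 29. Those of the target genes Nqo1 (9) and Osgin1 (5) and that of Keap1 (10) lay below that median. Osgin1 and Mafg, both past 2-fold, thus held the fewest and the most CpG of these windows, with Maff in between. For the genes past 2-fold other than Hmox1, which had no window, none of the 3 motifs occurred in more than 1 window. Sequence beyond these windows was not searched.

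Facts of the pair of arrays bear on all of these values alike. The share of the 45598 probes that stood well above background was 49.5% for control and 49.0% for Na2S3. Of 9 intestinal epithelial markers 5 were measured: Cdh1, Krt8 and Cdx1, and the dimmer Krt18 and Krt19 (142 and 215 in the control). Epcam, Vil1, Cdx2 and Cldn4 were not well above background. The summed scaled signal of the measured 5 was 79.9 in the control and 77.5 with Na2S3. Of 8 fibroblast markers 7 were measured, with sums of 619 and 578. Col1a1, Col1a2, Col3a1, Dcn and Vim were bright, whereas Thy1 and Acta2 were dim (128 and 65.8 in the control). Pdgfrb was not well above background. The bright genes make up most of the epithelial and fibroblast sums. Sums were 0.285 and 0.234 for 2 measured of 5 immune markers, and 8.14 and 6.70 for 3 measured of 4 endothelial markers. No measured marker passed 2-fold (0 in each list), and the part of these lower sums in the results was not tested.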

How the data were processed

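The study holds 2 arrays, 1 per group by treatment label. The scanner files hold spot intensity on a linear scale, background-subtracted and spatially detrended by Agilent Feature Extraction 10.7.1.1, per the file headers (9.5.1.1 per the submitters' processing notes). The deposited value table also holds linear intensity. Both its columns share the same quantiles, and the sources used here do not give its method.

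Of 58717 non-control spots, those flagged as outliers were left out (448 control, 390 Na2S3). Spots of 1 probe were averaged as log2 signal, less the 75th percentile of their array. For a gene, the brightest probe was used among those with over 50% of spots well above background on both arrays. Names came from RefSeq accessions through the GRCr8 table, else from the file. Genes with a log2 ratio of at least 1 in either direction were counted. There are no replicates, so no test was run, and precision is limited by having 1 array per group. Spot errors come from repeat spots, in bins of 1 log2 unit of signal. The counting was checked on simulated signals. For the members every probe is given. From the other lists the text names genes past 2-fold and up to 4 more with the largest ratio. Cul3, Sqstm1, Syvn1, Akr1b8, Txn1 and Hmox2 were named after their values were seen. The members and the lists were chosen with earlier results of these data known. Tools were Python 3.11.15, R 4.3.3 and limma 3.58.1. The 8 alternatives were quantile normalization, scaling to probes above background or to 7 spike-in probes, cyclic loess, normexp (offset 50), the deposited table, the median over a gene's probes and no filter on dim probes.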

Additional observations from a re-analysis of the deposited data

How the results depend on the processing

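The count of circuit genes at least 2-fold different was 5 under 7 of the 8 alternatives and 3 with normexp background correction, where Mafk (0.81) and Hmox1 (0.95) fell short. Of the 80 values of single genes under an alternative, 75 moved by less than their spot error. The other 5 were Osgin1 (1.61), Maff (1.83), Mafk (0.81) and Bach1 (0.28) with normexp and Nfe2l2 (0.49) with cyclic loess. All 10 genes kept a positive ratio under all 8. With no filter on dim probes, 1 CNC or MAF relative, Nrl, passed 2-fold. The counts of the other lists stayed within 1.5 times. The median of the other NRF2 targets moved from -0.14 to -0.0046 with quantile normalization. Over all genes, 123 higher and 81 lower became 61 and 31 with normexp and, among 27235 unfiltered genes, 1062 and 1545. Scaling moved the median of all measured genes from -0.04 to at most 0.01. Dim spots limit Osgin1, Mafk, Bach1 and Keap1, with spot errors of 0.16 to 0.34. No paired analysis was possible because each group has 1 array.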

Other observations

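Nqo2, the paralogue of Nqo1, had a signal of 474 in the control and 472 with Na2S3, a log2 ratio of -0.21 with a spot error of 0.10. Gclc, which encodes the catalytic subunit of the enzyme that starts glutathione synthesis, had 5161 and 7126, a log2 ratio of 0.26 with an error of 0.06, whereas its partner subunit gene Gclm could not be read. These genes were chosen after their values were seen.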
